A study of Mus musculus with 18 samples.

Results

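Ovaries of ARE+/- mice were compared with ovaries of wild-type (WT) mice across all genes. Members of the comparison were chosen by the tissue and genotype in the labels and are 6 of the 18 libraries of the study: ARE+/- replicates 1, 2 and 4, and WT replicates 1, 2 and 3. The labels do not spell out ARE, which is read here as the AU-rich element of Ifng, the gene of interferon gamma. The ARE+/- animals then carry the altered element on 1 copy of the gene, and the WT animals on none. The 3 ovary libraries of ARE-/- mice, altered on both copies, are replicates 2, 3 and 6, and replicate 6 is titled as a backup. They shared the fit and serve as the upper step of gene dose. The labels give every animal as C57B6/J, aged 20 to 25 weeks, and name no treatment. The study asks about failed implantation, poor luteinization and CD8 T cells when interferon gamma persists. The stage of the estrous cycle, which changes the ovary from day to day, is not given in the sources used here.

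Interferon gamma is a cytokine made mainly by T cells and natural killer cells. The AU-rich element marks its messenger RNA for decay, so that the cytokine is normally made in bursts. It binds the receptor Ifngr1 and Ifngr2, the kinases Jak1 and Jak2 relay the signal, and the factors they activate bind short gamma-activated sequences in promoters. A further wave follows through Irf1, a transcription factor that binds interferon-stimulated response elements. Responding cells display more peptides on MHC molecules, make defence GTPases and release chemokines that attract T cells. The ovary holds macrophages and some lymphocytes beside granulosa cells, theca cells, oocytes and the corpus luteum, and immune cells take part in ovulation and in the regression of the corpus luteum.

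Each of the 6 libraries held 38132822 to 46647171 counts and detected 30035 to 30756 genes. Mitochondrial transcripts took 3.33% to 4.53% of the counts and hemoglobin transcripts 0.0175% to 0.0657%. Ovarian markers were present in every library: the inhibin subunit gene Inha was at 1060 to 1392 CPM in ARE+/- ovaries and 1030 to 1629 CPM in WT ovaries, and the oocyte gene Gdf9 at 31.7 to 50.5 and 33.0 to 37.8 CPM for the same groups. CPM are counts scaled to a common library size. The first principal component held 53.9% of the variance of the 9 ovary libraries. On it ARE+/- replicates 1, 2 and 4 lay at -11.1, 15.3 and -40.2, and the 3 WT libraries at 37.4 to 47.2. ARE-/- replicates 2, 3 and 6 lay at -40.3, -63.8 and 12.9. Of the ARE+/- libraries replicate 2 lay nearest to WT, and it also held the lowest ARE+/- level of many immune genes given in the next paragraphs. These are bulk samples of ovary, so more cells of a type and more RNA per cell cannot be told apart.

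More genes rose than fell in ARE+/- ovaries, and the rises were led by genes such as Gbp2b, Cxcl9 and Fpr2. Of 24457 genes tested with edgeR's quasi-likelihood test, 417 passed a Benjamini-Hochberg adjusted p of 0.05 (1.71%): 330 were higher in ARE+/- (1.35%) and 87 lower (0.356%). The rises were larger, with a median log2 fold change of 1.56 and 238 of them at least 2-fold, of which 101 were at least 4-fold. The falls had a median of -0.48, and 3 were at least 2-fold. Over all genes tested the median was 0.02. Reads that map to several places or genes were counted at each, so some of the genes called can share reads. DESeq2's Wald test on the same libraries called 1500, of which 66.5% were higher, against 79.1% of the 417. In 14.7% of all genes tested every ARE+/- library lay above every WT library, and in 11.3% every one lay below. The count moved with most of the libraries. It stayed near 417 without ARE-/- replicate 3 (400) or ARE+/- replicate 2 (415), but the set of genes changed. Of those 400 and 415 calls, 324 and 274 were among the 417. Leaving out ARE-/- replicate 6 gave 727 and ARE-/- replicate 2 gave 250. Leaving out ARE+/- replicates 1 or 4 gave 89 and 112, and leaving out WT replicates 1, 2 or 3 gave 75, 145 and 90.

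**Figure D1:**
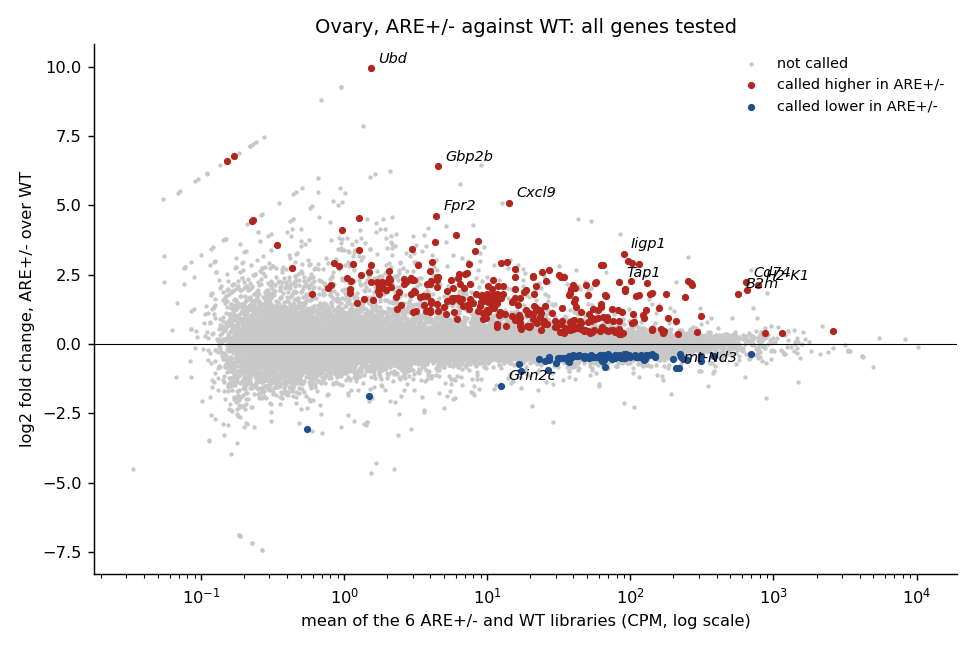
Log2 fold change of ovary ARE+/- over WT (vertical axis) against the mean level in CPM over the 6 libraries (horizontal log axis), 1 point per gene tested. The 330 genes called higher spread up to large rises at low and middle levels, and the 87 called lower lie close below the line of no change.

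Ifng itself was scarce. ARE+/- replicates 1, 2 and 4 held 18, 10 and 28 counts of it (0.471, 0.213 and 0.718 CPM), against 4, 0 and 4 counts in WT replicates 1, 2 and 3 (0.102, 0 and 0.100 CPM). All 3 ARE+/- libraries lay above all 3 WT libraries. The log2 fold change was 2.73 (SE 0.80) with an adjusted p of 0.127, so the difference did not pass edgeR's test at these counts. DESeq2's adjusted p was 0.0148, and over the alternatives the adjusted p ran from 0.0148 to 0.522. In ARE-/- ovaries the level was 1.28, 0.966 and 1.24 CPM. Of the neighbours of Ifng on chromosome 10, 6 were tested and 0 passed with edgeR, with DESeq2 or at an unadjusted p under 0.05, and their median log2 fold change was 0.03. Il22, the cytokine gene beside Ifng, had 0 counts in all 6 libraries.

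Irf1, an early target of interferon gamma, rose in ARE+/- ovaries. It measured 113, 88.9 and 112 CPM in ARE+/- replicates 1, 2 and 4, against 38.1, 48.7 and 43.6 CPM in the WT replicates. The groups were well apart, with ARE+/- replicate 2 the lowest of its group. The log2 fold change was 1.27 (SE 0.13, adjusted p = 0.00109).

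In the list of the receptor and the JAK-STAT pathway, 4 of 16 genes rose and 0 fell, with a median log2 fold change of 0.44. Beside Irf1, the members that rose included Irf8, a factor of myeloid cells and of the interferon response (log2 fold change 1.29), and Irf7, which is induced by type I interferon (1.11). The 4 became 2, with Irf1 among them, without ARE+/- replicate 1, ARE+/- replicate 4 or WT replicate 1. The receptor chains and kinases gave small values: Ifngr1 had a log2 fold change of 0.43 (SE 0.13, adjusted p = 0.124), Ifngr2 of 0.22, Jak1 of -0.04 and Jak2 of 0.09. Socs1, a feedback inhibitor of the pathway, measured 12.3, 14.4 and 15.5 CPM in ARE+/- ovaries, against 6.80, 6.24 and 9.99 CPM in WT ovaries. Its groups did not overlap, and its adjusted p was 0.0509 (log2 fold change 0.88, SE 0.19).

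The defence GTPases rose almost throughout. Guanylate-binding proteins (Gbp) and immunity-related GTPases (Irg) are induced by interferon gamma and attack membranes around intracellular parasites. Of 21 such genes tested 20 rose and 0 fell, with a median log2 fold change of 2.11. Their summed level was 1253 to 1773 CPM in ARE+/- ovaries and 348 to 410 CPM in WT ovaries. The only one that did not pass was Gbp8, at 35.5, 33.0 and 67.6 CPM in ARE+/- ovaries and 41.1, 16 and 32 CPM in WT ovaries.

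Iigp1, an immunity-related GTPase, measured 213, 115 and 161 CPM in ARE+/- replicates 1, 2 and 4, against 15.5, 22.1 and 13.2 CPM in the WT replicates. Its mean was 9.62-fold higher (log2 fold change 3.27, SE 0.27, adjusted p = 0.000751). Igtp, which encodes Irgm3, measured 135, 79.0 and 114 CPM in ARE+/- ovaries, against 14.3, 18.2 and 12.5 CPM in WT ovaries (log2 fold change 2.87, SE 0.22). The groups were far apart for these genes, and ARE+/- replicate 2 was the lowest ARE+/- library for both. Gbp2 measured 177, 123 and 134 CPM in ARE+/- ovaries, against 37.3, 41.0 and 35.9 CPM in WT ovaries (log2 fold change 1.93, SE 0.14, adjusted p = 0.000138).

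Gbp2b showed one of the largest rises, at 11.3, 3.54 and 12.1 CPM in ARE+/- ovaries, against 0, 0.0509 and 0.251 CPM in WT ovaries (log2 fold change 6.42, SE 0.82, adjusted p = 0.0126). Tgtp1 and Tgtp2, near-identical copies whose reads cannot be assigned to 1 of them with certainty, had log2 fold changes of 2.84 and 3.01. Of the 20 that rose, 13 passed also when any 1 of the 9 ovary libraries was left out: Gbp2, Gbp3, Gbp5, Gbp6, Gm12250, Gm4951, Ifi47, Igtp, Iigp1, Irgm1, Irgm2, Tgtp1 and Tgtp2.

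**Figure D2:**
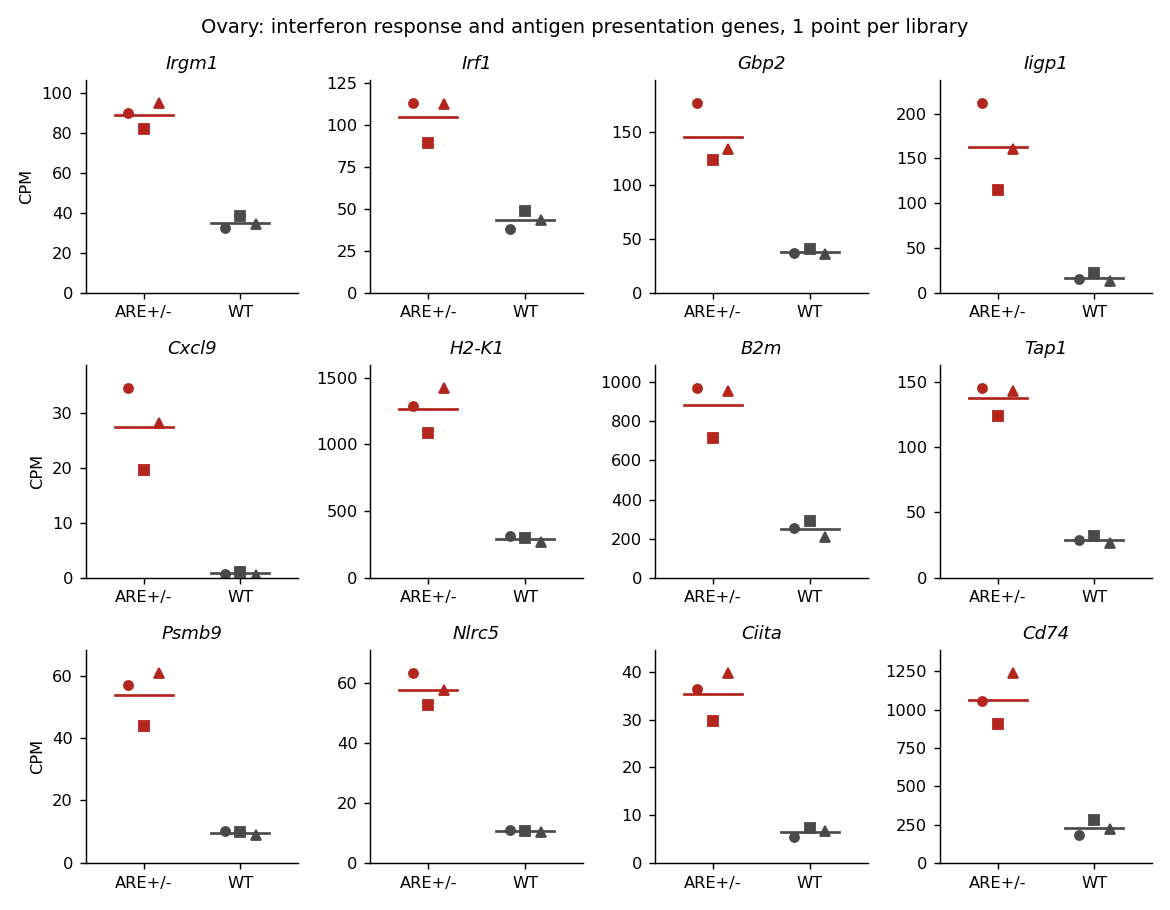
Level in CPM (linear axis from 0, 1 panel per gene) of interferon response and antigen presentation genes in each ovary library, ARE+/- left of WT, with 1 point per library and a line at the group mean. In each of the 12 panels all 3 ARE+/- points stand above all 3 WT points.

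The promoters of these genes were read for the elements that interferon-activated factors bind. Windows of 300 bases, from 250 before to 50 after an annotated start, were taken from RefSeq (GRCm38.p6), and both strands were searched. The interferon-stimulated response element core was searched as GAAANNGAAA and the gamma-activated sequence as TTCNNNGAA, whose matches can share bases with each other. A window was at hand for 221 of the 330 genes called higher, for 66 of the 87 called lower and for 14242 of all tested. The response element core stood in 51 of the 221 (23.1%), in 1 of the 66 (1.52%) and in 554 of all tested (3.89%). Among all windows, 3.44% held it. The gamma-activated sequence stood in 31 of the 221 (14%), in 6 of the 66 (9.09%) and in 1208 of all tested (8.48%), and 8.30% of all windows held it. Of 12 GTPase genes with a window, 11 held the response element core and 7 the gamma-activated sequence. A match of letters is a description of the window and does not show that a factor binds there.

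These examples show where the matches sit, written 5′ to 3′ in the direction of the gene with matches in capitals. Irf1 had 2 windows, for 2 annotated starts. The 1 printed lies at chr11:53769764-53770063 on the plus strand, and its gamma-activated sequence TTCCCCGAA begins 90 bases before that start. The other, at chr11:53770223-53770522, held neither motif. The window of Gbp2 lies at chr3:142620413-142620712 on the plus strand, and its response element core, found as TTTCACTTTC on the opposite strand, begins 59 bases before the start. The window of Igtp lies at chr11:58199306-58199605 on the plus strand, with a gamma-activated sequence 45 bases and a response element core 34 bases before the start.
Irf1: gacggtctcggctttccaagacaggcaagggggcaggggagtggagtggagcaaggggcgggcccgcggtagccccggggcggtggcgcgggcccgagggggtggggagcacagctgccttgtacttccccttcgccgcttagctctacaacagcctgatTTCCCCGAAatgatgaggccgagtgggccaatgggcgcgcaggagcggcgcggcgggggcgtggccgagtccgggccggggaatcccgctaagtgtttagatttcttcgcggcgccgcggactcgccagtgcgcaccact
Gbp2: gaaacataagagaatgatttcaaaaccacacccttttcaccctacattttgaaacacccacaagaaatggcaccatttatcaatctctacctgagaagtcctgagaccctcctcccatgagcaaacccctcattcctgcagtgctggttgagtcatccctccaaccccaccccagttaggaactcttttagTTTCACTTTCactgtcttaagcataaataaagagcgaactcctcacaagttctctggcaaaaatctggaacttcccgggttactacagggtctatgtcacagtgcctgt
Igtp: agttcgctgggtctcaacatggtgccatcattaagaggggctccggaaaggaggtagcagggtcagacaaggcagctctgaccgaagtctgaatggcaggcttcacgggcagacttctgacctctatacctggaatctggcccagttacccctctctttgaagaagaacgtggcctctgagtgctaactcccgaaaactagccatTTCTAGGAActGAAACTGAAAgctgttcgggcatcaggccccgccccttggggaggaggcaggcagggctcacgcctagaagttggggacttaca

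Genes of antigen presentation by MHC class I rose along the pathway. Class I heavy chains pair with B2m and show peptides from inside the cell to CD8 T cells. In this list 10 of 12 genes rose and 0 fell, with a median log2 fold change of 1.81, and the 10 passed also without any 1 library. H2-K1, a classical heavy chain, measured 1285, 1085 and 1424 CPM in ARE+/- ovaries, against 311, 301 and 266 CPM in WT ovaries. No ARE+/- library came near a WT library, and the mean was 4.32-fold higher (log2 fold change 2.11, SE 0.13, adjusted p = 4.31e-05). B2m, the light chain, measured 972, 716 and 955 CPM in ARE+/- ovaries, against 254, 289 and 209 CPM in WT ovaries (log2 fold change 1.82, SE 0.18, adjusted p = 0.00125).

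The nonclassical H2-Q6 and H2-Q7, near-identical copies, had log2 fold changes of 2.87 and 2.94, and H2-T23, which encodes the ligand Qa-1 of natural killer receptors, of 1.05. H2-Q10 measured 20.8, 17.1 and 10.4 CPM in ARE+/- ovaries and 10.3, 9.40 and 11.6 CPM in WT ovaries, and its groups overlapped. H2-T24 had a log2 fold change of 0.68 (adjusted p = 0.377).

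Of 13 genes that supply class I molecules with peptides, 9 rose and 0 fell, with a median log2 fold change of 0.84. Tap1, one chain of the peptide transporter into the endoplasmic reticulum, measured 145, 124 and 143 CPM in ARE+/- ovaries, against 28.7, 32.3 and 26.4 CPM in WT ovaries. Its log2 fold change of 2.24 (SE 0.11) carried the smallest adjusted p among the genes named here, 2.96e-05. Its partner Tap2 had a log2 fold change of 0.84 (SE 0.09), and Tapbp, which bridges the transporter to class I molecules, of 0.83 (SE 0.10).

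The inducible proteasome subunits Psmb8, Psmb9 and Psmb10, which replace the constitutive ones and change the peptides that are cut, had log2 fold changes of 2.21, 2.48 and 1.14. Nlrc5, the transactivator of class I genes, measured 63.3, 52.4 and 57.4 CPM in ARE+/- ovaries, against 10.9, 10.8 and 10.3 CPM in WT ovaries (log2 fold change 2.43, SE 0.15, adjusted p = 4.58e-05). The chaperone Calr had a log2 fold change of 0.28 and the oxidoreductase Pdia3 of 0.09, neither past the test. The proteasome activator subunit Psme2 rose by a log2 fold change of 0.49, while its partner Psme1 had overlapping groups (0.34, adjusted p = 0.32).

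Class I promoters differed among themselves in the searched letters. Of 10 class I genes with a window 3 held the response element core, and of 10 peptide supply genes 2 did. The B2m window at chr2:122147437-122147736 on the plus strand holds a core, GAAACTGAAA, that begins 139 bases before the start. The Psmb8 window at chr17:34197945-34198244 on the plus strand holds a gamma-activated sequence that begins 97 bases before the start. Tap1 and Psmb9 start next to each other on opposite strands, their windows share 275 bases, and neither motif was found there. The Tap1 window, on the plus strand at chr17:34187306-34187605, is printed for contrast, with no capitals.
B2m: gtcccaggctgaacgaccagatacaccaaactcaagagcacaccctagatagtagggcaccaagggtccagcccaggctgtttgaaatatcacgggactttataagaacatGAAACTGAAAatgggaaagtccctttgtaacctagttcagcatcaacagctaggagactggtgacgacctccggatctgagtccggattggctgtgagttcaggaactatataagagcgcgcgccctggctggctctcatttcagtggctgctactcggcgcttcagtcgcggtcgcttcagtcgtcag
Psmb8: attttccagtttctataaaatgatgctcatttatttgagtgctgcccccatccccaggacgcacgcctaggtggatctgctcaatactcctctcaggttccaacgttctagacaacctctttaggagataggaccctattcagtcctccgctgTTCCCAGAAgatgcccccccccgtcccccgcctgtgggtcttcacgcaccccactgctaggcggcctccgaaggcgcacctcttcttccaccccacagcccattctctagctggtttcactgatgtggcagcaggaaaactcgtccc
Tap1: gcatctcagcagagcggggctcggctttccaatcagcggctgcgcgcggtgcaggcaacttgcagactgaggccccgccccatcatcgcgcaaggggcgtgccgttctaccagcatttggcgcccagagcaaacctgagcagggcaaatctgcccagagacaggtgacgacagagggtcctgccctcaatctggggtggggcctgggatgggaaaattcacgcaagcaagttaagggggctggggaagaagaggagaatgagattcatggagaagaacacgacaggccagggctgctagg

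MHC class II genes rose as well. Class II molecules show peptides taken up from outside the cell to CD4 T cells and are normally restricted to antigen-presenting cells, while interferon gamma can switch them on in other cells through Ciita. Of 11 genes 9 rose and 0 fell, with a median log2 fold change of 2.22 and a summed level of 2241 to 3133 CPM in ARE+/- ovaries and 481 to 754 CPM in WT ovaries. Cd74, the invariant chain, measured 1053, 903 and 1240 CPM in ARE+/- ovaries, against 179, 282 and 224 CPM in WT ovaries. The groups were far apart (log2 fold change 2.22, SE 0.21, adjusted p = 0.00125).

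Ciita, the transactivator of the class II genes, measured 36.4, 29.7 and 39.8 CPM in ARE+/- ovaries, against 5.37, 7.39 and 6.77 CPM in WT ovaries (log2 fold change 2.44, SE 0.17, adjusted p = 0.000101). The chains H2-Aa, H2-Ab1 and H2-Eb1 had log2 fold changes of 2.14, 2.27 and 2.21, and H2-DMa, which helps to load peptides, of 2.59. H2-Ob, a modulator of loading found mainly in B cells, had overlapping groups (log2 fold change 0.42, adjusted p = 0.526), and H2-Oa had 1.56 (adjusted p = 0.129). Among the 9, H2-DMb2 and Ctss, a protease that trims Cd74, did not pass in every set with 1 library left out, and the other 7 did. Of 8 class II genes with a promoter window 1 held the response element core.

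Of 23 other interferon gamma targets tested, 11 rose and 0 fell, with a median log2 fold change of 1.33. Ubd, a ubiquitin-like modifier, had 366 counts over the 3 ARE+/- libraries and 0 over the WT libraries, at least 58.1-fold higher when the counts are taken as 183 read pairs and the WT group is set at a floor of 3 pairs in all. It measured 4.81, 0.982 and 3.49 CPM in ARE+/- replicates 1, 2 and 4, so replicate 2 was the lowest. The edgeR adjusted p of Ubd was 0.0339, and the call was lost in 6 of the 9 sets with 1 library left out, at up to 0.126. Cd274, the gene of PD-L1, which restrains T cells, measured 23.3, 13.3 and 18.5 CPM in ARE+/- ovaries, against 5.57, 6.04 and 5.50 CPM in WT ovaries (log2 fold change 1.68, SE 0.22, adjusted p = 0.00529). Pdcd1lg2, the second ligand of the same receptor, had 54 counts in ARE+/- and 2 in WT ovaries, a ratio of 25.7. Taken as 27 and 1 read pairs, since both mates were counted, its 95% counting interval was 4.24 to 1053. The edgeR adjusted p of Pdcd1lg2 was 0.0479, and the call was lost in 8 of the 9 sets with 1 library left out, at up to 0.171.

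Serpina3f, a protease inhibitor, rose by a log2 fold change of 3.69 (SE 0.36), and Casp1, the inflammasome protease, by 1.72 (SE 0.25). Nos2, the inducible nitric oxide synthase, measured 41.2, 24.6 and 40.5 CPM in ARE+/- ovaries and 38.2, 34.4 and 36.2 CPM in WT ovaries, and its groups overlapped. Ido1, which degrades tryptophan, was at 0.209 to 0.513 CPM in ARE+/- and 0 to 0.153 CPM in WT ovaries (adjusted p = 0.256). Gch1, an enzyme of tetrahydrobiopterin synthesis, lay lower in every ARE+/- library (log2 fold change -0.56, adjusted p = 0.283). The 11 became 3 without ARE+/- replicate 1 or WT replicate 3, 6 without ARE+/- replicate 4, 2 without WT replicate 1 and 7 without WT replicate 2. Apol9a and Serpina3f passed in all of these sets.

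Of 21 genes best known from the type I interferon response, 6 rose and 0 fell, with a median log2 fold change of 1.02. In 16 of the 21 all ARE+/- libraries lay above all WT libraries, against 14.7% of all genes tested. Zbp1, a sensor of left-handed nucleic acids, measured 26.6, 18.0 and 28.2 CPM in ARE+/- ovaries, against 3.61, 3.69 and 1.98 CPM in WT ovaries (log2 fold change 2.97, SE 0.30, adjusted p = 0.00205). The other risers were Oas3, Oas1a, Isg15, Oasl2 and Xaf1, with log2 fold changes of 0.88 to 2.25. Ifit1, an antiviral protein that binds foreign RNA, measured 18.1, 16.7 and 20.8 CPM in ARE+/- ovaries and 7.31, 10.8 and 6.05 CPM in WT ovaries, with an adjusted p of 0.0724. The 6 became 2 without ARE+/- replicates 1 or 4 or WT replicate 3, 1 without WT replicate 1, and 11 without ARE-/- replicate 6.

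**Figure D3:**
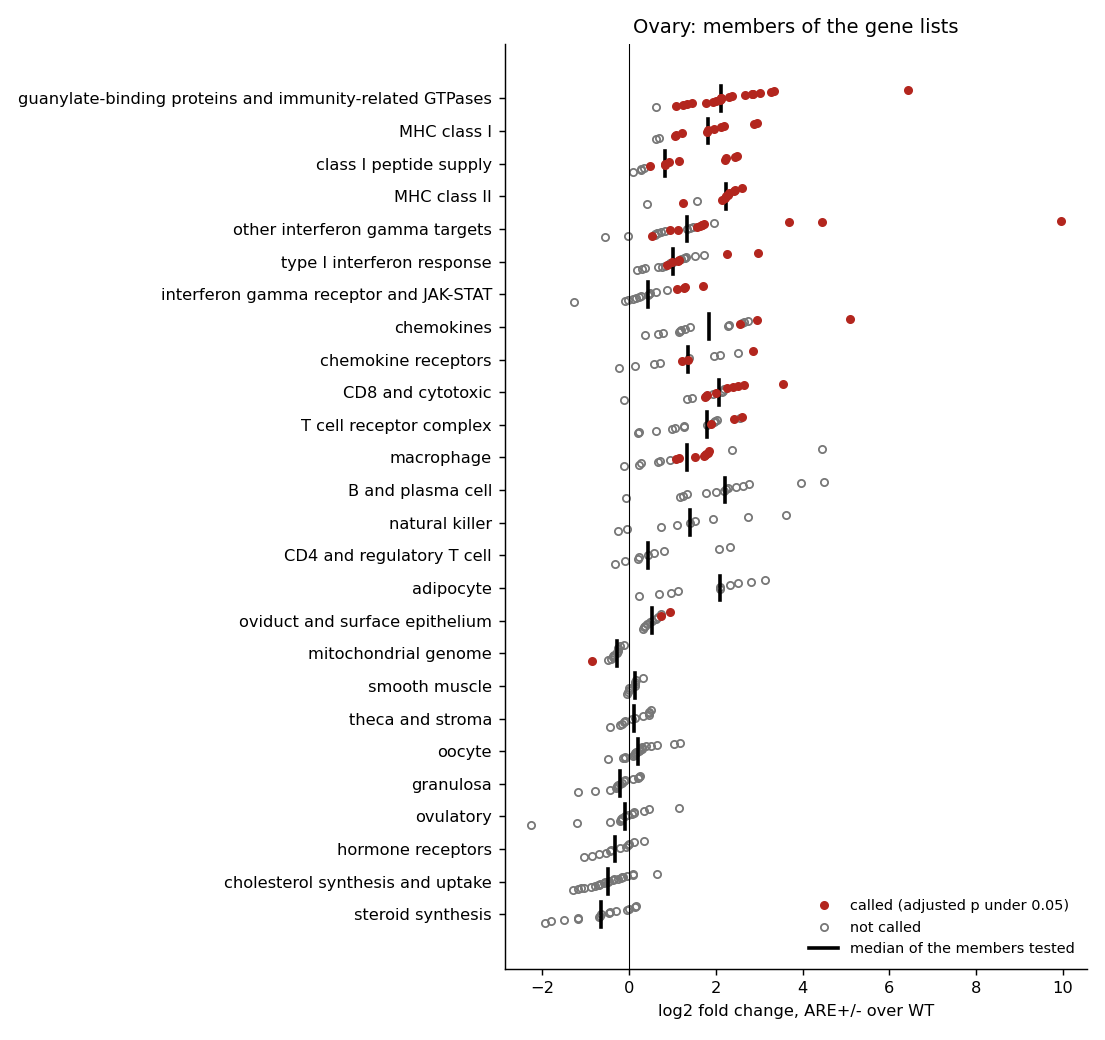
Log2 fold change of ovary ARE+/- over WT for the members of each gene list, 1 point per gene tested, filled where called, with a bar at the median of each list. The GTPases, MHC class I and class II lists have medians of 1.81 to 2.22 with all but 1, 2 and 2 of their points filled, and the ovarian function lists have medians of -0.66 to 0.20 with no filled point.

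Of the chemokines, Cxcl9, Cxcl10 and Ccl5 rose. Cxcl9 and Cxcl10 attract T cells through the receptor Cxcr3, and Ccl5 attracts T cells and other leukocytes. Cxcl9 measured 34.6, 19.6 and 28.3 CPM in ARE+/- ovaries, against 0.767, 1.07 and 0.552 CPM in WT ovaries. The mean was 34.5-fold higher (log2 fold change 5.10, SE 0.34, adjusted p = 0.000165). Cxcl10 measured 17.1, 9.03 and 10.9 CPM in ARE+/- ovaries, against 1.99, 2.83 and 1.51 CPM in WT ovaries (log2 fold change 2.55, SE 0.31, adjusted p = 0.00422). Ccl5 measured 7.32, 4.33 and 10.3 CPM in ARE+/- ovaries, against 0.818, 1.15 and 0.878 CPM in WT ovaries (log2 fold change 2.94, SE 0.36, adjusted p = 0.0047). These were 3 of 16 chemokines tested, with a list median of 1.84; the count was 6 without ARE-/- replicate 6.

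Among 11 chemokine receptors 3 rose and 0 fell, with a median of 1.36. They were Cx3cr1, the fractalkine receptor of monocytes and macrophages (log2 fold change 1.36, SE 0.13), Ccr2, which draws monocytes from the blood (1.22), and Xcr1, a receptor of cross-presenting dendritic cells (2.86). Without ARE+/- replicates 1 or 4, or WT replicates 1 or 3, the count was 1, with Cx3cr1 left. Cxcr3, the receptor for Cxcl9 and Cxcl10, measured 4.42, 3.54 and 7.80 CPM in ARE+/- ovaries and 1.74, 1.17 and 0.753 CPM in WT ovaries. Its groups did not overlap, and it did not pass (log2 fold change 2.10, SE 0.55, adjusted p = 0.102).

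Transcripts of CD8 T cells and of killing rose at low levels. Cd8a, the chain that marks CD8 T cells, measured 4.42, 3.01 and 3.13 CPM in ARE+/- ovaries, against 0.460, 0.611 and 0.602 CPM in WT ovaries. The lowest ARE+/- library was far above the highest WT library (log2 fold change 2.65, SE 0.30, adjusted p = 0.00227). Of 16 CD8 and cytotoxic genes tested 8 rose and 0 fell, with a median log2 fold change of 2.08 and a summed level of 23.1 to 41.2 CPM in ARE+/- ovaries and 7.42 to 11.2 CPM in WT ovaries. They included Prf1, the pore-forming perforin (log2 fold change 2.51, SE 0.44), Nkg7, a protein of cytotoxic granules (2.39, SE 0.32), Tbx21, the T-bet factor that drives Ifng transcription (2.27, SE 0.42), and Ctsw, a cathepsin of killer cells (1.79, SE 0.21).

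Gzmb, the granzyme of killer cells, measured 1.99, 1.13 and 3.23 CPM in ARE+/- ovaries and 0.205, 0.662 and 0.552 CPM in WT ovaries, without passing (adjusted p = 0.0653). Gzma had overlapping groups, since ARE+/- replicate 2 held 0.619 CPM and WT replicate 2 0.815 CPM. The 8 became 5 without ARE-/- replicate 2, 3 without ARE+/- replicates 1 or 4, 4 without WT replicate 2, and 2, Cd8a and Ctsw, without WT replicates 1 or 3. Of 9 natural killer genes 0 passed with edgeR, 3 with DESeq2 and 5 at an unadjusted p under 0.05, with a median of 1.41.

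Of 15 genes of the T cell receptor complex 3 rose: Trbc2, Trbc1 and Cd2, with log2 fold changes of 2.42, 1.88 and 2.60. In 12 of the 15 every ARE+/- library lay above every WT library, against 14.7% of all genes tested, and the median was 1.79. Cd3e measured 2.20, 2.33 and 4.31 CPM in ARE+/- ovaries and 1.25, 0.789 and 0.502 CPM in WT ovaries (adjusted p = 0.0698). The 3 became 1 without ARE-/- replicate 2 or ARE+/- replicate 4, 0 without ARE+/- replicate 1 or any 1 of the WT replicates, and 6 without ARE-/- replicates 3 or 6. Of 9 genes of CD4 and regulatory T cells 0 passed with edgeR or DESeq2 and 1 at an unadjusted p under 0.05, with a median of 0.44. Cd4 measured 2.98, 3.54 and 5.75 CPM in ARE+/- ovaries and 1.99, 2.65 and 2.36 CPM in WT ovaries (log2 fold change 0.81, SE 0.37). Foxp3, the factor of regulatory T cells, had 7.55, 8.41 and 7.72 CPM in ARE+/- and 7.16, 6.37 and 6.65 CPM in WT ovaries.

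The checkpoint receptors gave 0 calls of 7 with edgeR or DESeq2, and 3 at an unadjusted p under 0.05. Pdcd1, the receptor PD-1 of Cd274, measured 5.02, 7.83 and 4.82 CPM in ARE+/- ovaries and 2.91, 4.28 and 5.72 CPM in WT ovaries, with overlapping groups. Of 12 genes of the interleukins and receptors that induce interferon gamma or act beside it, 4 rose: Il27, Il12rb1, Il2rb and Il2rg, with log2 fold changes of 2.92, 2.03, 1.23 and 1.40. That count was 2 without ARE-/- replicate 2, and 0 without ARE+/- replicates 1 or 4 or any 1 of the WT replicates. Il12b, the shared chain of interleukins that induce interferon gamma, was below 1 CPM in all 6 libraries.

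Macrophage genes rose in part. Of 16 tested, 8 rose and 0 fell, and the median log2 fold change was 1.34. In every ARE+/- library 14 of the 16 lay higher, against 14.7% of all genes tested. The list's summed level was 995 to 1560 CPM in ARE+/- ovaries and 513 to 667 CPM in WT ovaries. Adgre1, a surface receptor that marks mouse macrophages, measured 66.2, 39.6 and 73.5 CPM in ARE+/- ovaries, against 18.3, 24.7 and 19.2 CPM in WT ovaries (log2 fold change 1.53, SE 0.29, adjusted p = 0.0462). C1qa, C1qb and C1qc, the chains of the complement starter C1q made by macrophages, had log2 fold changes of 1.77, 1.84 and 1.75. Csf1r, the receptor of the macrophage growth factor, measured 114, 108 and 141 CPM in ARE+/- ovaries, against 47.4, 60.6 and 54.7 CPM in WT ovaries (log2 fold change 1.16, SE 0.18). The 8 became 3 without ARE-/- replicate 3 or WT replicate 2, and 0 without ARE+/- replicates 1 or 4 or WT replicates 1 or 3.

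Some myeloid genes varied widely within the ARE+/- group. Fcgr4, an activating receptor for antibodies, measured 154, 20.9 and 129 CPM in ARE+/- replicates 1, 2 and 4, against 3.68, 5.22 and 5.07 CPM in WT ovaries. The groups did not overlap, with a wide spread in ARE+/- and an adjusted p of 0.0551 (log2 fold change 4.45, SE 0.83). Itgam, the CD11b integrin, measured 82.1, 14.7 and 71.7 CPM in ARE+/- ovaries and 10.1, 11 and 11.3 CPM in WT ovaries (adjusted p = 0.206). Fpr2, a receptor for formylated peptides, rose by a log2 fold change of 4.63 (SE 0.81, adjusted p = 0.0371), at 14.8, 1.88 and 8.67 CPM in ARE+/- ovaries and 0.256, 0.458 and 0.301 CPM in WT ovaries. The integrin Itgad (log2 fold change 4.53), the signalling adaptor Sh2d1b1 (3.94) and the Ly49 receptor gene Klra2 (3.71) shared the pattern of a low ARE+/- replicate 2, as did Gpr18 (3.38). Itgad, Sh2d1b1, Klra2 and Gpr18 are named here as members of the 12 largest rises and not as myeloid genes. Gm4841 (3.43), named by the same rule and also not as a myeloid gene, had another pattern. It was high in ARE+/- replicate 1, at 9.99, 2.80 and 3.52 CPM in replicates 1, 2 and 4. The calls of these 6 genes were each lost in some sets with 1 library left out, with adjusted p of up to 0.19 for Fpr2 and 0.223 for Sh2d1b1. Of the macrophage markers, Lyz2 and Cd163 had overlapping groups (log2 fold changes 0.24 and -0.12).

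**Figure D4:**
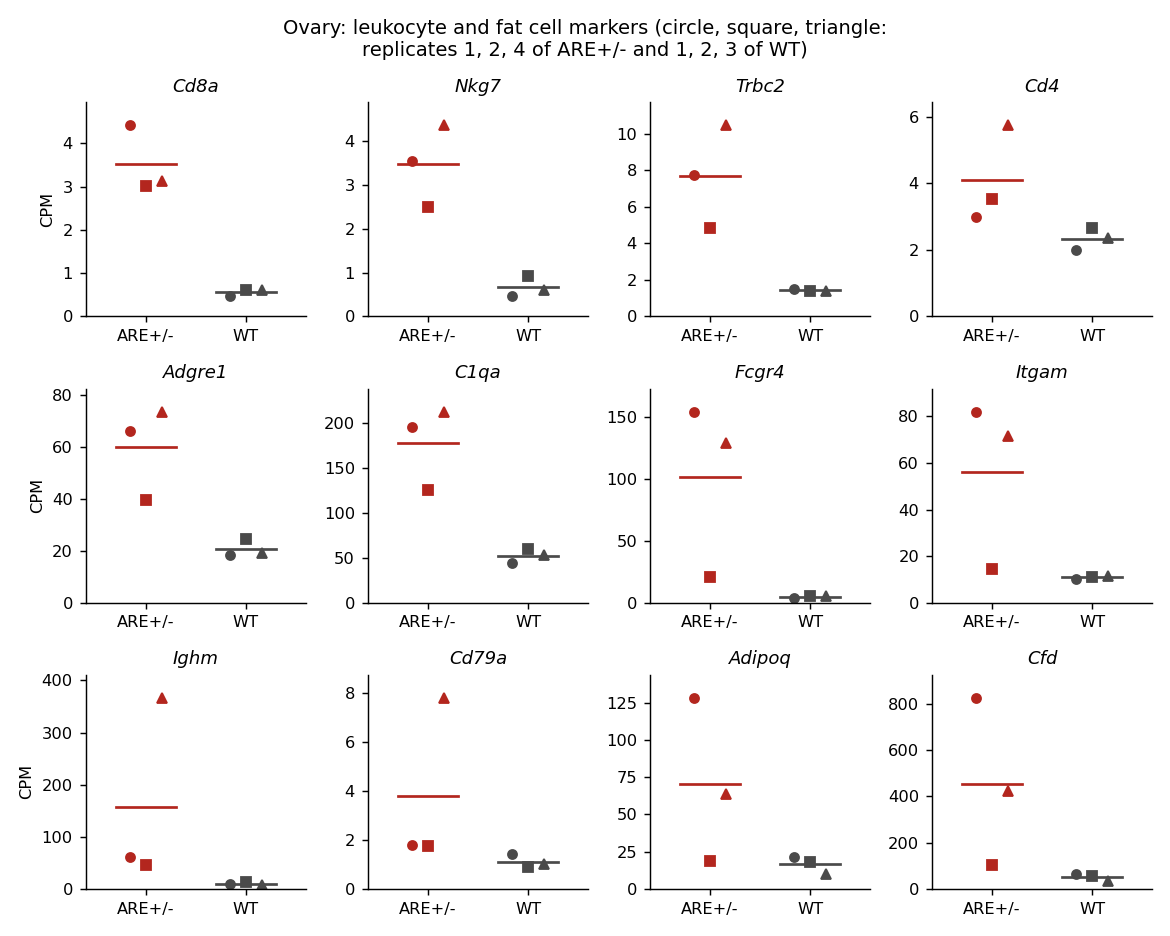
Level in CPM (linear axis from 0, 1 panel per gene) of leukocyte and fat cell markers in each ovary library, ARE+/- left of WT, with 1 point per library and a line at the group mean. Cd8a, Nkg7, Trbc2, Adgre1 and C1qa stand apart between the groups, while Fcgr4, Itgam, Ighm and Adipoq spread widely within ARE+/-.

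Summed levels of adipocyte and B cell markers were higher in every ARE+/- library than in every WT library, each with 1 ARE+/- library far above the others. The summed level of 10 adipocyte genes was 2304, 856 and 986 CPM in ARE+/- replicates 1, 2 and 4, against 764, 575 and 392 CPM in WT ovaries. With edgeR, DESeq2 or an unadjusted p under 0.05, 0 of the 10 passed, and the list median was 2.10. Its defining members were present in both groups, with Adipoq at 18.6 to 128 CPM in ARE+/- and 10.1 to 21.2 CPM in WT ovaries. The summed level of 14 B and plasma cell genes was 317, 207 and 1279 CPM in ARE+/- ovaries and 65.1, 115 and 74.0 CPM in WT ovaries, with a median of 2.22. Of the 14, 0 passed with edgeR, 3 with DESeq2 and 6 at an unadjusted p under 0.05. Ighm, the heavy chain of IgM, measured 61.3, 45.2 and 367 CPM in ARE+/- and 9.59, 14.1 and 6.55 CPM in WT ovaries. No member of either list was at 0 in all 6 libraries. ARE+/- replicate 1 had the highest adipocyte sum and replicate 4 the highest B cell sum, and replicate 2 was lowest in both and in the macrophage sum. The part of these cell types in the macrophage, T cell and class II results was not tested.

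In the oviduct and surface epithelium list 10 of 11 members lay higher in every ARE+/- library, against 14.7% of all genes tested. Of these Krt18 and Krt19 passed, and the median log2 fold change of the list was 0.53. The list's sum was 3373 to 3939 CPM in ARE+/- and 1908 to 2544 CPM in WT ovaries. Ovgp1, the oviduct glycoprotein, measured 2528, 3087 and 2440 CPM in ARE+/- and 1318, 1846 and 1918 CPM in WT ovaries (adjusted p = 0.0614). Krt19, a keratin of simple epithelia, measured 145, 147 and 198 CPM in ARE+/- and 84.0, 77.5 and 92.9 CPM in WT ovaries (log2 fold change 0.95, SE 0.15, adjusted p = 0.017). Krt19 was lost without any 1 of the WT replicates, and Krt18 in 7 of the 9 sets with 1 library left out, so that the count was 0 without any 1 of the WT replicates, 1 without ARE-/- replicate 2 or any 1 of the ARE+/- replicates, and 3 without ARE-/- replicate 6. DESeq2 called 5 of the 11. How much oviduct stayed on each ovary is not given in the sources used here, and its part in these values was not tested.

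Of the remaining marker lists, 1 member each rose among complement, neutrophil, dendritic and lymphoid tissue genes, out of 10, 7, 9 and 7 tested. They were C4b, the second step of the complement cascade (log2 fold change 1.80), Csf3r, the receptor for granulocyte growth factor (1.75), Xcr1, and Tnfsf13b, the B cell survival factor BAFF (1.91). Of the 9 sets with 1 library left out, C4b was lost in 7, all but those without ARE-/- replicate 6 or ARE+/- replicate 2. Csf3r was lost without ARE+/- replicates 1 or 4 or WT replicates 1 or 3, and Xcr1 in these sets and without ARE-/- replicate 3. Tnfsf13b passed in all 9. The complement count was 3 without ARE-/- replicate 6, and the dendritic count was 2 without ARE+/- replicate 2, while the lymphoid count was 2 without ARE-/- replicates 3 or 6. DESeq2 called 6 complement genes (5 higher and 1 lower), 1 neutrophil, 3 dendritic and 2 lymphoid tissue genes, all higher in the last 3 lists. The neutrophil proteins S100a8 and S100a9 were below 1 CPM in all 6 libraries. Mast cell, erythroid, endothelial, smooth muscle and immediate early lists gave 0 calls with edgeR or DESeq2 among 5, 5, 11, 9 and 14 tested, and 0, 1, 2, 0 and 1 at an unadjusted p under 0.05.

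No gene of the ovarian function lists passed with edgeR. In steroid synthesis 0 of 15 passed with edgeR, with DESeq2 or at an unadjusted p under 0.05, with a median log2 fold change of -0.66. Groups were apart in 0 of 15, against 14.7% of all genes tested higher and 11.3% lower. Star, which brings cholesterol into the mitochondrion, measured 421, 609 and 72.3 CPM in ARE+/- ovaries and 606, 3256 and 397 CPM in WT ovaries. WT replicate 2 held the highest value, and the groups overlapped (log2 fold change -1.95, SE 1.22, adjusted p = 0.512). Cyp11a1, which makes the first steroid from cholesterol, measured 3297, 5507 and 1838 CPM in ARE+/- and 5192, 5223 and 4369 CPM in WT ovaries (log2 fold change -0.47, SE 0.61). Akr1c18, which breaks down progesterone as the corpus luteum regresses, measured 14.1, 528 and 5.70 CPM in ARE+/- and 1125, 79.1 and 345 CPM in WT ovaries. The spread of these 3 genes within a genotype was wide, with standard errors of 0.61 for Cyp11a1, 1.22 for Star and 1.93 for Akr1c18.

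The receptors of luteal and follicular cells gave 0 calls of 12 with edgeR, 1 with DESeq2 and 2 at an unadjusted p under 0.05, and a median of -0.32. Lhcgr, the receptor of luteinizing hormone, measured 418, 442 and 193 CPM in ARE+/- and 498, 649 and 372 CPM in WT ovaries (log2 fold change -0.53, SE 0.68). Prlr, the prolactin receptor that sustains the mouse corpus luteum, measured 300, 398 and 124 CPM in ARE+/- and 491, 507 and 326 CPM in WT ovaries. Granulosa genes gave 0 calls of 15, ovulatory genes 0 of 15, oocyte genes 0 of 20 and theca and stroma genes 0 of 12 with edgeR or DESeq2, with medians of -0.21, -0.11, 0.20 and 0.11. At an unadjusted p under 0.05 their numbers were 2, 1, 0 and 0. Amh, made by growing follicles, measured 175, 112 and 215 CPM in ARE+/- and 124, 145 and 163 CPM in WT ovaries.

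Cholesterol genes gave 0 calls of 23 with edgeR, 1 with DESeq2 and 3 at an unadjusted p under 0.05, with a median of -0.48, and 3 of the 23 lay lower in every ARE+/- library, a share near the 11.3% of all genes tested. Among them was Sc5d, a late enzyme of cholesterol synthesis, at 105, 103 and 85.4 CPM in ARE+/- and 200.4, 377 and 139 CPM in WT ovaries (log2 fold change -1.29, SE 0.41, adjusted p = 0.189). Proliferation genes gave 0 calls of 20 with edgeR, with DESeq2 or at an unadjusted p under 0.05, with a median of 0.33. Of the 20, 7 were higher in every ARE+/- library, against 14.7% of all genes tested. Mki67, a marker of dividing cells, measured 96.5, 66.7 and 70.2 CPM in ARE+/- and 62.7, 54.0 and 58.7 CPM in WT ovaries (adjusted p = 0.337).

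**Figure D5:**
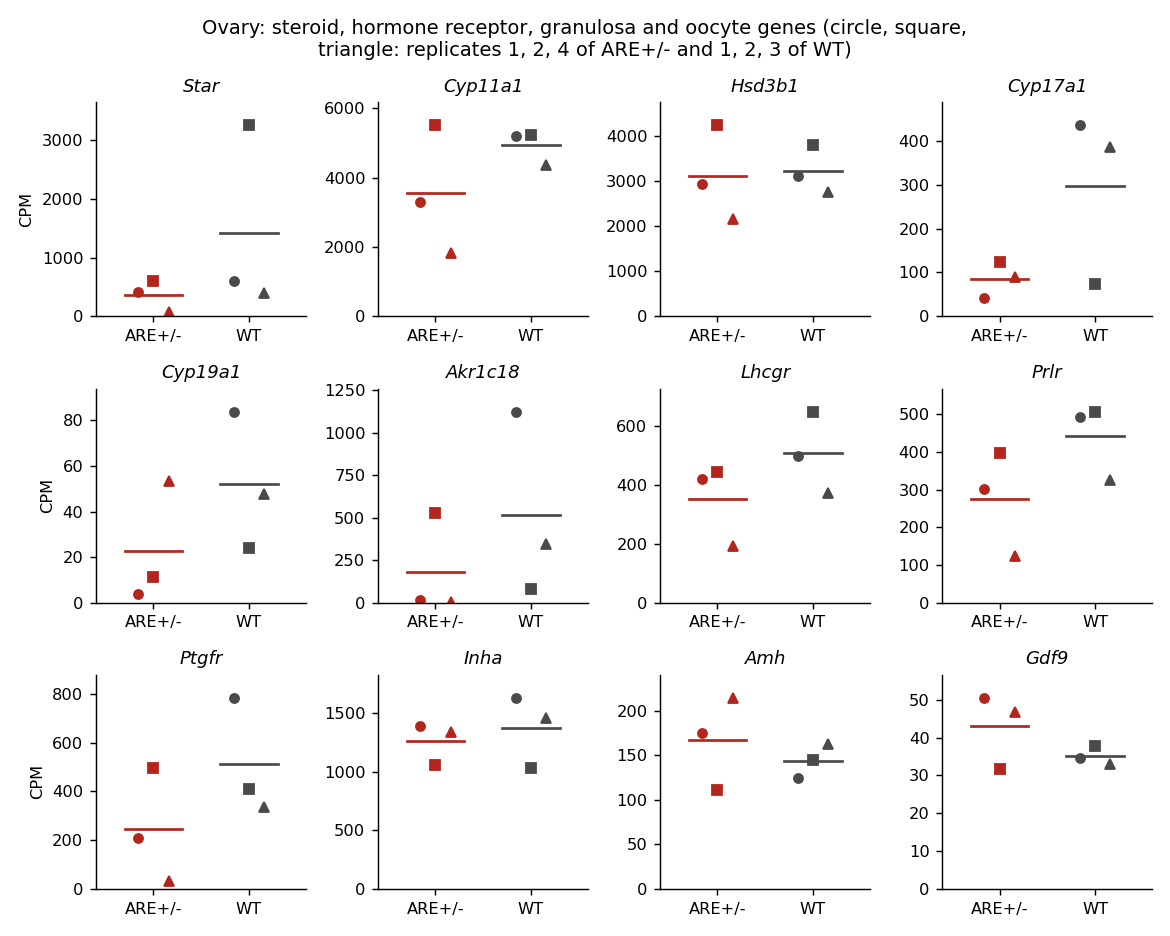
Level in CPM (linear axis from 0, 1 panel per gene) of genes of ovarian function in each ovary library, ARE+/- left of WT, with 1 point per library and a line at the group mean. In each of the 12 panels the points of the groups overlap, with a wide spread within each genotype for Star and Akr1c18.

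The 87 genes that fell did so mostly by small amounts. The 3 that fell at least 2-fold were Grin2c and, on chromosome 7, ENSMUSG00002075133 and ENSMUSG00002076192, which have no symbol and averaged 0.115 and 0.636 CPM in ARE+/- and 0.989 and 2.35 CPM in WT ovaries. Grin2c, a subunit of the NMDA glutamate receptor, had 6.17, 5.89 and 7.47 CPM in ARE+/- ovaries against 20.9, 17.3 and 17.1 CPM in WT ovaries. The groups were far apart and tight (log2 fold change -1.50, SE 0.18, adjusted p = 0.00377), and it passed also without any 1 library. Srcin1, an inhibitor of the kinase Src, measured 42.8, 48.4 and 53.2 CPM in ARE+/- and 85.3, 87.0 and 83.0 CPM in WT ovaries (log2 fold change -0.82, SE 0.12). Gm11611, which lies within Srcin1 on the same strand of chromosome 11 and shares reads with it, had -0.98. Kcnt2, a sodium-activated potassium channel (-0.92), the deubiquitinase Usp31 (-0.67) and Kmt2d, a histone H3 lysine methyltransferase (-0.62), were also among the 12 largest falls, as were Zfp948 (-0.74), Igip (-0.64) and the noncoding Snhg14 (-0.62).

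The genes that fell were longer than the ones that rose. The median exonic length was 6139 bases for the 87 and 2429.5 bases for the 330, against 2482 bases for all tested and 3359 bases for the 12343 genes whose mean level reached 10 CPM. The count of falls moved with most of the libraries left out. Without ARE-/- replicates 2 or 6 it was 49 and 185. Without ARE+/- replicates 1, 2 or 4 it was 3, 43 and 12, and without WT replicates 1, 2 or 3 it was 3, 15 and 10.

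Transcripts of the mitochondrial genome lay lower in ARE+/- ovaries. Of 13, 11 were lower in every ARE+/- library, against 11.3% of all genes tested. All 13 log2 fold changes were negative with a median of -0.28. With edgeR 1 passed, with DESeq2 5, and at an unadjusted p under 0.05 11. The 1 was mt-Nd3, a subunit of respiratory complex I, at 169, 123 and 153 CPM in ARE+/- and 275, 282 and 247 CPM in WT ovaries (log2 fold change -0.85, SE 0.13, adjusted p = 0.0155), and it was lost without WT replicates 1 or 2. Gm28438, a short gene on chromosome 1 whose values track mt-Nd3 closely, had -0.87, and reads that map to several places were counted at each. The sum of the 13 was 32193 to 35203 CPM in ARE+/- and 36475 to 43556 CPM in WT ovaries. Among 11 proteins that bind AU-rich elements, Tial1 fell (log2 fold change -0.47, SE 0.10, adjusted p = 0.049), and 0 rose; Zfp36, which drives decay of such transcripts, had overlapping groups (-0.15). The call of Tial1 was lost without any 1 of 8 of the 9 libraries.

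The second altered copy was followed in the same fit. Against ARE+/- ovaries, ARE-/- ovaries had 12 genes that passed, 0.0491% of those tested, and all 12 were higher in ARE-/-. At an unadjusted p under 0.05 the number was 2051. The 12 were Tap1, Psmb9, Psmb8, Irgm1, H2-K1, H2-Q4, Ifi47, H2-Q6, H2-Q7, Gm12185, Tgtp1 and Tgtp2, with log2 differences of 0.90 to 1.39. Tgtp1 with Tgtp2 and H2-Q6 with H2-Q7 are near-identical copies that can share reads, so the 12 are not all separate results. Tap1 averaged 257 CPM in ARE-/-, 137 CPM in ARE+/- and 29.2 CPM in WT ovaries, and its difference between ARE-/- and ARE+/- was 0.90 (SE 0.10, adjusted p = 0.0448). Tgtp2 averaged 449, 172 and 21.3 CPM in the same order of groups, with a difference of 1.39 (SE 0.18, adjusted p = 0.0487).

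For these 12 genes the ARE+/- mean was 38.2% to 53.4% of the ARE-/- mean. This restates the log2 differences by which the 12 were picked and does not describe other genes. The contrast shares the ARE+/- libraries with the comparison against WT, so the comparisons are not independent. The count of 12 was 2 without ARE-/- replicate 2, 0 without ARE-/- replicate 3, any 1 of the ARE+/- replicates or WT replicate 1, 5 without WT replicate 2 and 7 without WT replicate 3. ARE-/- ovaries against WT, which share the WT libraries, had 2558 genes past the test (10.5%), of which 1544 were higher and 1014 lower in ARE-/-. Cxcl9 had a log2 fold change of 6.72 in ARE-/- and 5.10 in ARE+/- ovaries, Cd8a of 4.05 and 2.65, and C1qa of 2.24 and 1.77, each against the same WT libraries. Ifng passed in ARE-/- ovaries, with a log2 fold change of 4.04. The ARE-/- libraries were not alike. Macrophage genes summed to 2412, 1972 and 1113 CPM in ARE-/- replicates 2, 3 and 6, and to 995 to 1560 CPM in ARE+/- ovaries. B and plasma cell genes summed to 868, 2568 and 133 CPM, and to 207 to 1279 CPM in ARE+/- ovaries. The GTPases summed to 3186, 3964 and 3045 CPM, all above the 1253 to 1773 CPM of ARE+/- ovaries.

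The effect of 1 altered copy was also set against that in the uterus, in a fit over all 18 libraries. The difference of the effects, ovary minus uterus, passed in 1 of 26682 genes (0.00375%), and 2380 had an unadjusted p under 0.05. That gene was Ltbp2, a protein of the extracellular matrix that binds fibrillin. In the ovary it averaged 26.2 ± 6.37 CPM in ARE+/- and 31.3 ± 1.97 CPM in WT (SD, n = 3 each), and in the uterus 28.3 ± 3.49 CPM in ARE+/- and 4.78 ± 0.676 CPM in WT (SD, n = 3 each). The effect was -0.26 (SE 0.25) in the ovary and 2.56 (SE 0.27) in the uterus, a difference of -2.82 (SE 0.36, adjusted p = 0.0193). It was lost without any 1 of 9 of the 18 libraries, among them all 3 ovary WT libraries and ovary ARE+/- replicates 1 and 4.

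The difference between the tissues did not pass for interferon-induced genes. H2-K1 had a log2 effect of 2.11 in the ovary and 2.21 in the uterus (difference -0.10, adjusted p = 0.951), and Cxcl9 of 5.10 and 3.40 (difference 1.70, adjusted p = 0.342). Cd8a had 2.65 in the ovary and 3.51 in the uterus, and Nkg7 had 2.38 and 0.78, with adjusted p of the difference of 0.592 and 0.297. These values do not show that the tissues respond alike, since the standard errors of the differences were 0.25 for H2-K1 and 0.47 for Cxcl9.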

How the data were processed

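Total RNA of ovaries and uteri was sequenced in read pairs, and the 6 ARE+/- and WT ovary libraries are compared here. The deposited counts per gene were made by the authors with featureCounts 2.0.4 on GENCODE M32, without a strand setting, with multi-mapping reads and reads over several genes counted at each, per the file headers. STAR, DESeq2 and the build mm10 are named per the submitters' processing notes, while GENCODE M32 annotates a later build, so the sources differ. Each mate of a pair was counted singly, per the file headers' options. A deposited table also gives the authors' adjusted p-values of a test over all 3 ovary genotypes. By that test 719 genes in all had an adjusted p under 1e-04, and 346 of the 417 genes called here were among them. The authors' test includes the same libraries and asks for any difference among the genotypes, so it can pass on ARE-/- ovaries alone. The 346 are therefore no separate support for a difference between ARE+/- and WT ovaries.

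Genes were filtered with filterByExpr (minimum count 10), scaled by TMM and fitted with edgeR 4.0.16 in R 4.3.3, with 1 mean per genotype over the 9 ovary libraries, so all genotypes share 1 estimate of the spread. The quasi-likelihood test was robust, and the Benjamini-Hochberg adjustment ran over all genes tested, with 0.05 as threshold. SE is the log2 fold change divided by the root of F. The tissue difference is an interaction in a fit over 18 libraries. DESeq2 1.42.0 served as an alternative, and the procedure was tested on simulated data. The design text gives 3 mice per genotype. In the ovary fit the p-values set a difference against the spread within genotypes over all 9 ovary libraries, those of ARE-/- included. Counting intervals and floors (3 read pairs) cover counting error only.

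The members and the 40 gene lists were chosen with earlier results of these data known. Named genes are Ifng, a set fixed in the lists, the 12 largest changes in each direction among called genes whose groups do not overlap and whose mean level reached 1 CPM, and called list members as examples. Some genes of the lists are not reported here. Other genes of the lists and of the family counts were named after their values were seen. The labels do not say whether replicate numbers pair the libraries. Deviations of same-numbered ARE+/- and WT libraries correlated at -0.0468 and 0.0137, and those of differently numbered ones at -0.136 to 0.148. So few same-numbered libraries cannot decide whether the numbers pair them. Within groups, counts of the 9 pairs of libraries differed by more than sampling noise, with a chi-square per degree of freedom of 20.7 to 100.1.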

Additional observations from a re-analysis of the deposited data

Results flagged for a closer look

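Ltbp2 was the 1 gene whose ARE+/- effect differed between the tissues by a test of the difference itself. The ovary effect minus the uterus effect was -2.82 on the log2 scale (SE 0.36, adjusted p = 0.0193, edgeR). In the ovary ARE+/- replicates 1, 2 and 4 measured 23.8, 33.4 and 21.3 CPM, against 29.1, 31.9 and 33.0 CPM in the WT replicates, scaled over all 18 libraries, so the ovary groups overlapped while the uterus means were 28.3 CPM in ARE+/- and 4.78 CPM in WT. With 1 library left out at a time the difference was -3.04 to -2.69, with adjusted p from 0.00497 to 0.129.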

How the results depend on the processing

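The direction of all 122 named or listed genes that were called held under every alternative run. All 330 genes called higher and all 87 called lower had groups that did not overlap. Leaving out 1 library could therefore hardly turn a sign, and the held direction is no separate support. Of these, 31 passed under every alternative and 91 were lost under at least 1. Of 28 named genes not called, 7 passed under at least 1 alternative. Amh, Hsd3b1 and Pgr changed sign: under the replicate block they were -0.056, 0.19 and -0.34, and with 1 library left out they ran from -0.029 to 0.42, from -0.35 to 0.14 and from -0.46 to 0.62. The signs turned without ARE+/- replicate 4, and those of Hsd3b1 and Pgr also without WT replicate 2. The causes were not tested. Median-of-ratios scaling (400 genes), no filter (524) and halved counts (426) stayed within 1.5 times the 417. Of these calls, 388, 362 and 395 were among the 417.

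Only the 6 ARE+/- and WT libraries gave 701 calls (496 higher, 205 lower), and DESeq2 gave 1500 (998 higher, 502 lower). Both held most of the 417 genes, 393 and 417 of them. Without robust shrinkage 55 fell. The replicate block, whose numbers the labels do not tie to any pairing, left 59 calls. All 59 were higher and 0 lower at the same threshold, and 46 of them were among the 417. ARE-/- against ARE+/- gave 38 calls without a filter and 199 with DESeq2, and the tissue difference gave 3 and 197. With 1 library left out, the total ran from 75 to 727, the rises from 72 to 542, the falls from 3 to 185, ARE-/- against ARE+/- from 0 to 14 and the tissue difference from 0 to 81, the last without uterus WT replicate 2.

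Of list members called, DESeq2 gave 7 for JAK-STAT, 9 for chemokines, 6 for chemokine receptors, 14 for the type I response and 10 for the T cell receptor complex. The 6 libraries gave 5 chemokines and 6 T cell receptor genes, and no filter gave 6 T cell receptor and 4 macrophage genes. The replicate block gave 0 for JAK-STAT, the T cell receptor complex, the interleukin list and macrophages, 11 GTPases, 1 chemokine receptor, 4 peptide supply genes, 1 type I gene, 2 other interferon gamma targets and 1 CD8 gene. With 1 library left out the counts ran from 2 to 6 for JAK-STAT, 15 to 20 for GTPases, 3 to 6 for chemokines, 1 to 4 for their receptors, 10 to 10 for class I, 7 to 9 for peptide supply, 7 to 9 for class II, 1 to 11 for type I, 2 to 13 for other targets, 0 to 6 for the T cell receptor, 2 to 9 for CD8, 0 to 4 for the interleukin list and 0 to 11 for macrophages.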

Other observations

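Some families were counted after their values were seen, and no test was made of them. Over all genes tested 1.35% were called higher and 0.356% lower, with a median log2 fold change of 0.02. Of 12 Cd300 genes, receptors of myeloid cells for lipids, 4 were called higher in ARE+/- ovaries and the median log2 fold change was 1.55. Of 9 Klra genes, which encode the Ly49 receptors, 2 were called higher, Klra1 and Klra2, with a median of 2.75. Klra1 had 36 counts in ARE+/- and 0 in WT ovaries, at least 5.72-fold higher when the counts are taken as 18 read pairs and the WT group is set at a floor of 3 pairs in all. Of 12 Parp genes, which encode ADP-ribosyl transferases, Parp3, Parp9, Parp10 and Parp14 were called higher. The median of the 12 was 0.22, with 8 log2 fold changes positive and 4 negative.

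Of 87 cytosolic ribosomal protein genes 3 were called higher, Rplp0, Rpl6l and Rpl3, and 72 of the log2 fold changes were positive, with a median of 0.15. Of 11 Srsf genes, which encode splicing factors, Srsf6 and Srsf10 were called lower and 10 of the log2 fold changes were negative, with a median of -0.22. Of 400 zinc finger genes named Zfp, 5 were called lower and 0 higher, and 254 of the log2 fold changes were negative, with a median of -0.08. The shares called over all genes tested were 1.35% higher and 0.356% lower. The share of negative log2 fold changes over all genes is not given here.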
